A study of Populus trichocarpa with 18 samples.

Results

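The genes described here were those whose transcripts peaked at 12 h in control protoplasts of Populus trichocarpa (black cottonwood). Protoplasts are plant cells whose walls have been digested away, and these were made from differentiating xylem of stems, where young wood cells lay down thick secondary walls. The 18 RNA-seq libraries fall into 6 groups of 3. The PtrSND1-B1 groups received this transcription factor together with sGFP, a green fluorescent protein, and were sampled at 7, 12 and 25 h. The sGFP groups received sGFP alone and were sampled at the same times. All cells came from greenhouse plants, were transfected with the aid of polyethylene glycol and carried the sGFP construct. The labels give no age, no pooling of plants, no fraction of transfected cells and no promoter for either construct.

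Members were chosen on the 9 sGFP libraries only. Levels were taken as log2(CPM + 1), where CPM is the count scaled to a total of 1000000 over the first model of each locus, and differences were formed inside each replicate number. A member had a higher level at 12 h than at 7 h and than at 25 h in all 3 numbers, and both mean differences were at least 0.6. The rule gave 112 genes of 40668 (0.275%), below its limit of 300, so none was dropped. The members just inside the threshold had a smaller mean difference of 0.6028, 0.603 and 0.6048, and the genes just outside it 0.5992, 0.5944 and 0.5942. These sGFP values are a description of the choice and were not tested.

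Protoplast isolation removes the wall and takes cells out of their tissue, and cells kept in culture medium change their transcripts with time as they respond to isolation and begin to rebuild a wall. A transcript that is high only at an intermediate time reflects the balance of synthesis and decay, and 3 time points give its order but not its true maximum. PtrSND1-B1 belongs to the NAC-domain factors, which bind DNA and act as switches for secondary wall formation in wood. The deposited file pairs no identifier with a gene name, and the RefSeq gene table matched 0 of the identifiers. No function, xylem marker list or sequence is therefore given for any member, and few identifiers are shown. The protoplasts were thus not checked against xylem markers here. In bulk libraries such as these, fewer cells of a type and less RNA per cell cannot be told apart.

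The libraries held 2690853 to 13970708 counts over first models. Members were thinly covered, with 19 to 13753 reads over the 18 libraries (median 389, against 1528.5 for the 22590 genes tested), and 13 members had under 100 reads in all. All reads of members together made up 789, 1130 and 627 CPM in PtrSND1-B1 protoplasts at 7 h, for replicate numbers 1, 2 and 3, then 1760, 3140 and 1320 CPM at 12 h and 867, 1080 and 757 CPM at 25 h. In sGFP protoplasts the sum was 658, 972 and 566 CPM at 7 h, 1600, 2510 and 1150 CPM at 12 h, and 723, 999 and 577 CPM at 25 h. In each construct the 3 libraries of 12 h had larger sums than the 6 libraries of the other times. In sGFP the choice of genes favours this, though it compared times only inside each number. The 2 members with the most reads (13753 each) held identical counts and both enter these sums. At 12 h in number 2 of PtrSND1-B1 each gave 478 CPM of the 3140.

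**Figure D1:**
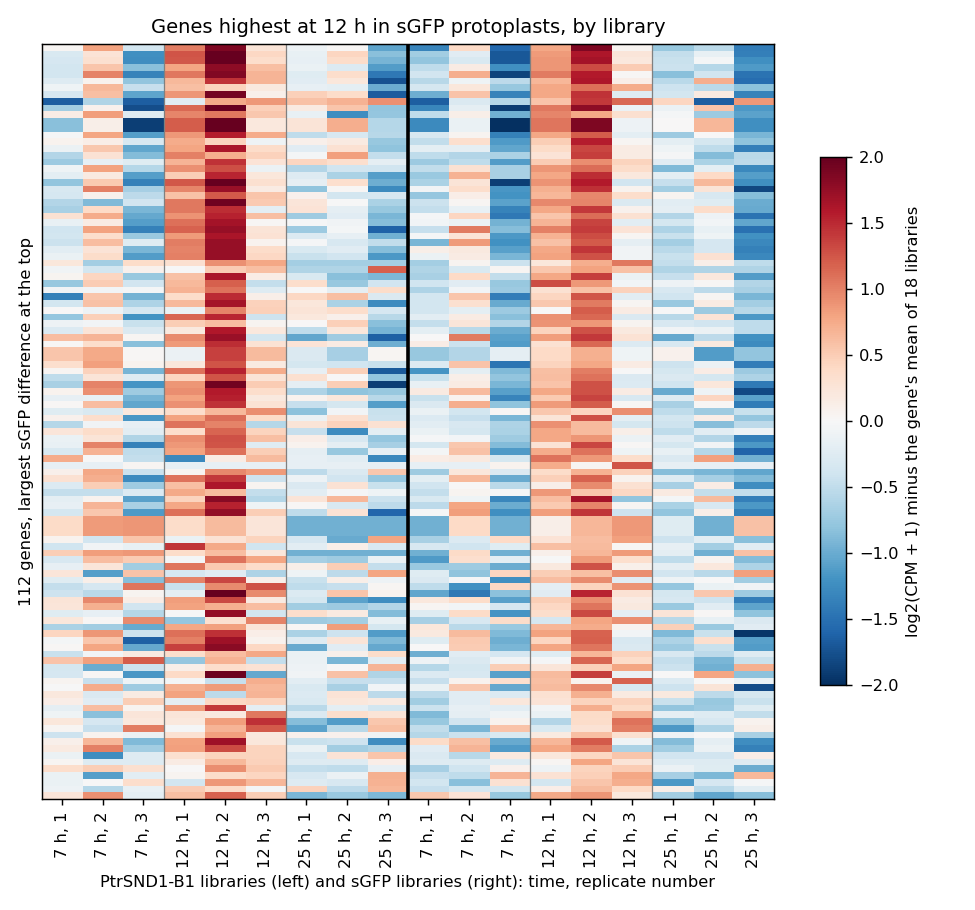
Level of each of the 112 genes (1 row each, largest smaller sGFP difference at the top) in the 9 PtrSND1-B1 libraries (left) and the 9 sGFP libraries (right), as log2(CPM + 1) minus the gene's mean over the 18 libraries. The columns of 12 h are mostly red in both constructs, with number 2 the darkest, while rows further down show the pattern less evenly in PtrSND1-B1.

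The question open to a test was whether the same genes were also highest at 12 h in protoplasts that received PtrSND1-B1, whose libraries the choice did not use. Libraries of both constructs with the same time and number deviated together, however, with correlations of 0.345 to 0.752 (described below). The share of all genes beside each count does not allow for this. Of the 112 members, 57 (50.9%) met the same rule in the 9 PtrSND1-B1 libraries, against 171 of all 40668 genes (0.42%). The 57 are 33.3% of those 171. All 6 differences inside numbers were above 0 for 69 members (61.6%), against 2.44% of all genes. The reversed rule, lowest at 12 h, was met in PtrSND1-B1 by 11 genes (0.027% of all) and in sGFP by 15 (0.0369%). A single gene, 1 of the 15 (6.67%) and of the 11 (9.09%), was on both reversed lists. The reversed counts depended on single replicate numbers. With number 1, 2 or 3 left out, which loosens the rule, they were 68, 54 and 187 in PtrSND1-B1. In sGFP they were 47, 92 and 156. The rule for a peak then gave 565, 178 and 326 genes in PtrSND1-B1, and 333, 120 and 334 in sGFP.

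The median member difference of 12 h over 7 h in PtrSND1-B1 protoplasts was 0.769, 0.949 and 0.784 on the log2(CPM + 1) scale in numbers 1, 2 and 3, or 0.834 ± 0.1 (SD, n = 3 numbers). For the genes tested this median was -0.0579 ± 0.112. For 12 h over 25 h the members' medians were 0.896, 1.48 and 0.894, or 1.09 ± 0.34, and that of the genes tested was 0.122 ± 0.197. The mean difference of 12 h over 7 h was above 0 for 103 members (92.0%), against 44.9% of the genes tested, and that of 12 h over 25 h for 109 (97.3%), against 62.0%. The members ranged from -1.06 to 2.08 for the first and from -0.449 to 1.95 for the second. On this scale a low level damps a fold change, and most members were low.

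**Figure D2:**
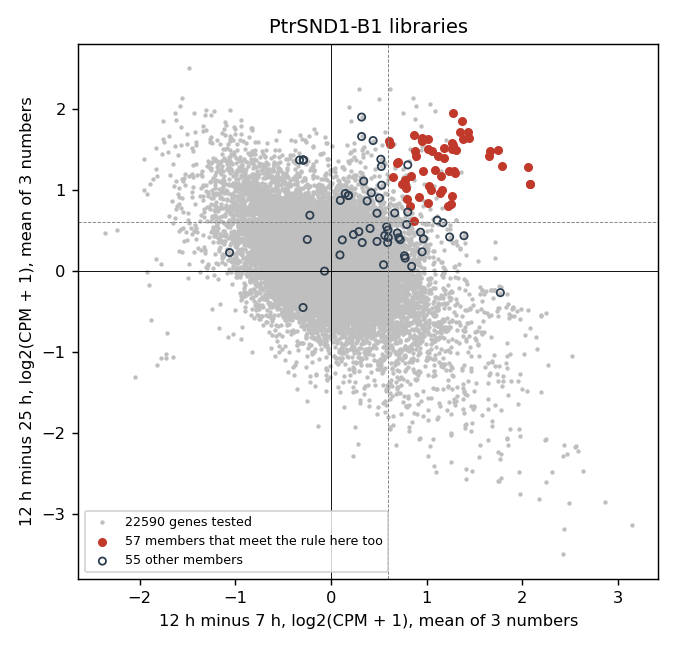
Mean difference of 12 h minus 7 h (horizontal) and of 12 h minus 25 h (vertical) on the log2(CPM + 1) scale in PtrSND1-B1 libraries, for the 22590 genes tested (grey) and the 112 members. The dashed lines mark 0.6, filled points are the 57 members that meet the rule there and open points the other 55.

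By edgeR's quasi-likelihood test on the 9 PtrSND1-B1 libraries, 0 of the 112 members passed for 12 h over 7 h, where 0 of all 22590 genes passed (0.0%). An unadjusted p under 0.05 was reached by 43 members that were higher at 12 h and 1 that was lower, against 5.95% and 5.91% of all genes. DESeq2 called 12 members higher, among 237 of the 22590 genes (1.05%). For 12 h over 25 h 0 members passed, against 0.0398% of all genes higher and 0.062% lower. Here an unadjusted p under 0.05 was reached by 49 members higher (5.68% of all genes) and 0 lower (5.78%). DESeq2 called 9 members higher here, among 157 of all genes (0.695%). The filter on low counts kept 85 members, and the other 27 could not be called.

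Among PtrSND1-B1 libraries the replicate numbers met the criterion for pairing, with a lowest correlation of 0.102, so the test was also made with that number as a blocking term. That lowest value joined number 1 of 7 h and of 25 h. Number 2 of 7 h correlated more with number 1 of 25 h (0.185), so the pairing is uncertain there. In this blocked fit 34 members rose at 12 h over 7 h and 0 were lower, against 2.0% of all genes higher and 2.09% lower. For 12 h over 25 h, 37 members were higher at 12 h and 0 lower, against 2.26% and 2.39% of all genes. Both comparisons were passed by 29 genes (0.128% of those tested), and 26 of these 29 were members. With the 9 sGFP libraries added to the blocked fit, 51 members were higher over 7 h (2.97% of 23777 genes) and 50 over 25 h (4.68%). The sGFP libraries chose the members and here enter the estimates of number effects and spread. These 2 counts are therefore not separate from the choice. Leaving out a replicate number moved the calls of members and of all genes. Without number 1, 10 members were higher over 7 h (0.359% of all genes) and 19 over 25 h (0.964%), and without number 3 these were 44 (4.17%) and 42 (3.78%). Without number 2 no gene of the 22775 tested was higher in either comparison by the blocked edgeR fit (0.0%), members included. There an unadjusted p under 0.05 was reached by 57 members higher and 1 lower over 7 h, against 9.1% of all genes in either direction, and by 40 higher and 0 lower over 25 h, against 10.9%.

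The member with the most reads among those in both the 10 largest sGFP differences and the 10 largest edgeR fold changes in PtrSND1-B1 was POPTR_0005s15880.1. In PtrSND1-B1 protoplasts it had 16.2, 26.1 and 8.15 CPM at 7 h, 50.4, 93.7 and 26.8 CPM at 12 h, and 18.3, 27.1 and 10.4 CPM at 25 h. In sGFP protoplasts it had 11.6, 16.5 and 5.68 CPM at 7 h, 39, 68.1 and 24.2 CPM at 12 h, and 15, 20.1 and 8.31 CPM at 25 h. Number 2 was the highest and number 3 the lowest in every group, so that number 3 at 12 h overlapped number 2 at 25 h in PtrSND1-B1, while inside each number 12 h stood above both other times. In PtrSND1-B1, 12 h exceeded 7 h by 1.81 on the log2 scale (SE 0.508), with an edgeR adjusted p of 0.229. The blocked edgeR fit gave 1.79 (SE 0.158) with an adjusted p of 0.00213. Over 25 h the difference was 1.52 (SE 0.512) with an edgeR adjusted p of 0.278, and 1.46 (SE 0.163) with an adjusted p of 0.0024 in the blocked fit. POPTR_0005s15860.1, within 5 rows of it in the file, had 2500 reads against 2628 and nearly the same values, so the reads of the pair may be shared and their counts are uncertain.

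By reads POPTR_0005s15860.1 came next in both lists and is not described further, being so near the first, and POPTR_0012s10870.1 followed with 791 reads. In PtrSND1-B1 protoplasts it had 4.82, 9.95 and 3.17 CPM at 7 h, 11.9, 25 and 10.3 CPM at 12 h, and 5.85, 5.2 and 2.45 CPM at 25 h. In sGFP protoplasts the values were 4.24, 7.34 and 2.2 CPM at 7 h, 12.8, 17.5 and 9.69 CPM at 12 h, and 4.58, 4.02 and 2.43 CPM at 25 h. Its 12 h libraries lay above all libraries of the other times in both constructs, without overlap. In PtrSND1-B1 edgeR put the log2 fold change of 12 h at 1.42 over 7 h (SE 0.472) and 1.65 over 25 h (SE 0.498), with adjusted p-values of 0.291 and 0.23. Blocked values were 1.46 (SE 0.266) and 1.6 (SE 0.291), with edgeR adjusted p-values of 0.0184 and 0.0154. Such separation without regard to number was seen for 13 members in PtrSND1-B1, against 0.325% of all genes, and for 28 members in sGFP, where 0.325% of all genes had it and the choice itself favours it.

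The 10 members with the largest smaller difference in sGFP had values of 1.15 to 1.73 there. Of these 10, 8 met the rule in PtrSND1-B1, with smaller differences of 0.889 to 1.48, and the other 2 had 0.378 and -0.266. The 10 members with the largest smaller edgeR fold change in PtrSND1-B1 had values of 1.42 to 1.71.

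The share of genes that kept the pattern in PtrSND1-B1 was larger where the sGFP difference was larger. Among all genes with 6 differences above 0 in sGFP, the rule was met in PtrSND1-B1 by 18 of 139 (12.9%) with a smaller mean difference of 0.4 to 0.6, which are not members. It was met by 18 of 58 members (31%) at 0.6 to 0.8, 18 of 28 (64.3%) at 0.8 to 1, and 21 of 26 (80.8%) above 1. The same threshold of 0.6 was used in both constructs, so part of this rise is built in. Without a threshold, all 6 differences in PtrSND1-B1 were above 0 for 16.5% of genes at 0 to 0.2 and 12.7% at 0.2 to 0.4. This share was 31.7% at 0.4 to 0.6, 46.6% at 0.6 to 0.8, 67.9% at 0.8 to 1 and 88.5% above 1. The share of members that met the rule there also differed with coverage, which was not set against the sGFP difference. Of the 56 members with the most reads (396 to 13753) 41 met the rule in PtrSND1-B1, and of the 56 with the fewest (19 to 382) 16 did.

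The pattern was least kept by 2 members with few reads. POPTR_0009s01740.1 had 2.85, 3.55 and 4.98 CPM in PtrSND1-B1 protoplasts at 7 h, 0.502, 3.16 and 0.858 CPM at 12 h, and 1.37, 0.372 and 1.22 CPM at 25 h, with 1 to 33 reads per library. In sGFP protoplasts it had 1.41, 1.11 and 1.47 CPM at 7 h, 1.54, 4.79 and 2.32 CPM at 12 h, and 0.859, 0.365 and 0.895 CPM at 25 h. In all 3 numbers of PtrSND1-B1 the 12 h level was below that of 7 h, though numbers overlapped between the times. EdgeR's log2 fold change was -1.41 (SE 0.594) with an adjusted p of 0.388, and -1.44 (SE 0.568) with an adjusted p of 0.185 in the blocked fit. POPTR_0017s00220.1 had 1.97, 0.178 and 2.72 CPM in PtrSND1-B1 at 7 h, 1, 1.15 and 0.644 CPM at 12 h, and 1.37, 0.743 and 3.36 CPM at 25 h. In sGFP it had 1.13, 0.445 and 2.38 CPM at 7 h, 2.53, 2.84 and 3.79 CPM at 12 h, and 0.931, 0.731 and 3.45 CPM at 25 h. In PtrSND1-B1 its times overlapped, and it fell below the count filter. These 2 genes were chosen after their values were seen, as the members with the lowest smaller difference in PtrSND1-B1.

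**Figure D3:**
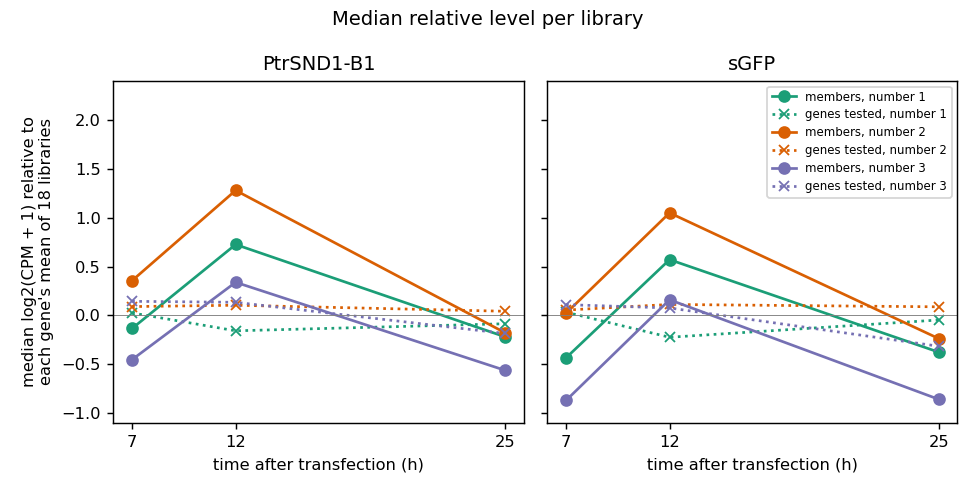
Median of log2(CPM + 1) relative to each gene's mean of 18 libraries, by time after transfection, for members (circles, solid lines) and the 22590 genes tested (crosses, dotted lines), 1 line per replicate number, in PtrSND1-B1 (left) and sGFP (right). Every member line is highest at 12 h, number 2 is the highest and number 3 the lowest of the member lines at each time, and the genes tested stay between -0.316 and 0.144.

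The members also shared a pattern across replicate numbers. Differences inside numbers remove it only as far as it was the same at each time, and it differed between 12 and 25 h. At 12 h number 2 was the highest of the 3 libraries for 87 members (77.7%) in PtrSND1-B1, against 34.5% of the genes tested, and for 84 members (75%) in sGFP, against 41.6%. Number 3 was the lowest at 12 h for 80 members (71.4%) in PtrSND1-B1 and 77 (68.8%) in sGFP, against 24% and 24.1% of the genes tested. At 25 h the share with number 2 highest was 46.4% of members in PtrSND1-B1 and 52.7% in sGFP, next to 45.3% and 54.4% of the genes tested. Number 3 was the lowest in all 6 groups for 45 members (40.2%), against 6.23% of the genes tested.

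Libraries of both constructs that shared time and number deviated together from their group means, with correlations across genes of 0.345 to 0.752 over the 9 pairs (genes are not independent replicates). The PtrSND1-B1 libraries are therefore not an independent set of protoplasts as far as these numbers mark shared material, and the agreement of the constructs was examined by leaving a number out of the choice. Genes chosen by the rule on sGFP numbers 1 and 3 numbered 120, of which 78 were members. In number 2 their median difference of 12 h over 7 h was 0.795 in PtrSND1-B1 and 0.637 in sGFP, and that of 12 h over 25 h was 1.33 in PtrSND1-B1 and 1.08 in sGFP. Both differences were above 0 for 80% of them in PtrSND1-B1 and 78.3% in sGFP, against 29.4% and 25.7% of the genes tested.

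Smaller differences were found in number 1, and a turned one in number 3. Of the 333 genes chosen on numbers 2 and 3, 102 were members. The 333 had medians in number 1 of 0.0948 over 7 h and 0.284 over 25 h in PtrSND1-B1. For the genes tested these were -0.187 and -0.0443. In sGFP the 333 had 0.0206 and 0.0508, against -0.251 and -0.135. Both differences were above 0 in number 1 for 46.5% of them in PtrSND1-B1 and 41.1% in sGFP, against 15.9% and 14.1% of the genes tested. Of the 334 genes chosen on numbers 1 and 2, 97 were members. The 334 had a median of 0.443 over 7 h in number 3 of PtrSND1-B1 and 0.413 in sGFP. Over 25 h their median in number 3 was -0.444 in PtrSND1-B1 and -0.435 in sGFP, where the genes tested had 0.34 and 0.403. For these genes number 3 was thus lower at 12 h than at 25 h in both constructs, and both differences were above 0 in number 3 for 32.3% in PtrSND1-B1 and 37.1% in sGFP, close to the 35.7% and 34.5% of the genes tested. The 112 members, chosen with number 3 included, had a median of 0.894 over 25 h in number 3 of PtrSND1-B1. The part of shared material in the agreement of the constructs was not tested.

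**Figure D4:**
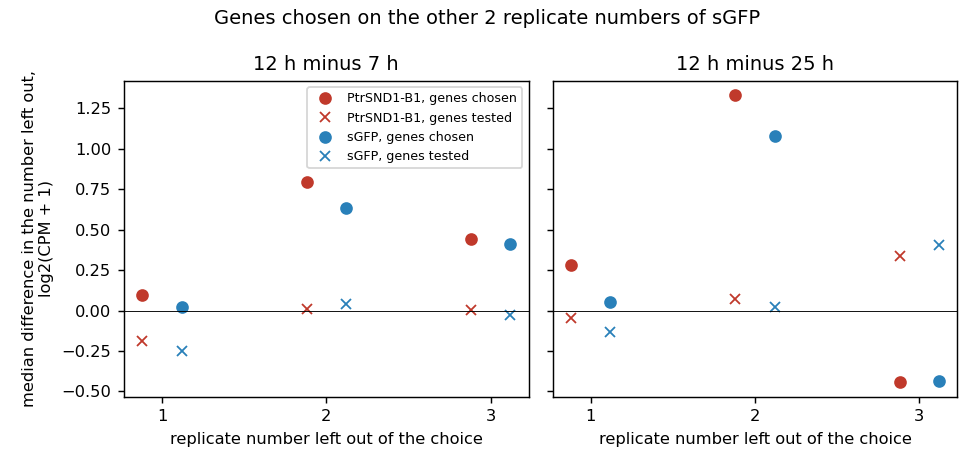
Median difference of 12 h minus 7 h (left) and 12 h minus 25 h (right) on the log2(CPM + 1) scale in the replicate number that was left out, for genes chosen on the other 2 numbers of sGFP (circles) and for the genes tested (crosses), in PtrSND1-B1 (red) and sGFP (blue). PtrSND1-B1 and sGFP circles of the same number lie near each other, also where the pattern turns for number 3 over 25 h.

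Levels at 25 h were compared with those at 7 h in PtrSND1-B1. The rule set no value for this difference, but it left out genes that rose or fell at both steps in sGFP. In sGFP the mean difference of 25 h minus 7 h ran from -1.06 to 1.07 in members and from -3.55 to 6.04 in the genes tested. In PtrSND1-B1 these ranges were -1.7 to 2.03 and -3.99 to 6.28. By edgeR's test 3 members rose and 1 fell, against 6.71% of all genes higher and 6.69% lower, and with the block 6 rose and 4 fell, against 13.0% and 13.4%. The members' median of 25 h minus 7 h was -0.131 ± 0.139 on the log2(CPM + 1) scale (SD, n = 3 numbers), next to -0.168 ± 0.145 for the genes tested. The share of members called lies below that of all genes. Members held fewer reads (median 389 against 1528.5), and the choice left out steady changes. The part of either in the result was not tested. The count of 3 became 0 without PtrSND1-B1 7 h replicate 1 or 25 h replicate 1, and 1 without 7 h replicate 2, 7 h replicate 3 or 12 h replicate 2. The count of 1 became 0 without 7 h replicate 2, and 2 to 6 without any other single library.

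POPTR_0002s26000.1 rose most among these 3 and had 0, 1.07 and 0 CPM at 7 h, 1.67, 4.31 and 4.72 CPM at 12 h, and 3.71, 4.09 and 4.89 CPM at 25 h in PtrSND1-B1. In sGFP it had 0, 1.56 and 1.1 CPM at 7 h, 3.62, 7.33 and 5.9 CPM at 12 h, and 3.22, 0 and 4.73 CPM at 25 h. The 25 h libraries of PtrSND1-B1 lay above those of 7 h without overlap, and in sGFP the low 25 h mean came from number 2, which held 0 reads. In PtrSND1-B1, edgeR's log2 fold change of 25 h over 7 h was 3.64 (SE 0.847) with an adjusted p of 0.0203, and that of 12 h over 25 h was -0.411 (SE 0.662) with an adjusted p of 0.85. POPTR_0019s12430.1 had 2.85, 2.66 and 1.96 CPM at 7 h, 9.2, 9.49 and 6.01 CPM at 12 h, and 5.07, 9.66 and 3.67 CPM at 25 h in PtrSND1-B1. Its level at 25 h exceeded that at 7 h by 1.42 (log2; SE 0.398), with an edgeR adjusted p of 0.0412. The third rise was that of the row next to POPTR_0002s26000.1, with 1 as its log2 fold change (SE 0.274) and an edgeR adjusted p of 0.0372.

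The gene that fell was POPTR_0001s06890.1, with 12.1, 19.7 and 8.6 CPM at 7 h, 15.7, 23.9 and 14.6 CPM at 12 h, and 4.88, 5.57 and 4.89 CPM at 25 h in PtrSND1-B1. In sGFP it had 15, 12.4 and 5.5 CPM at 7 h, 17.7, 19.4 and 11.8 CPM at 12 h, and 5.87, 4.38 and 5.12 CPM at 25 h. Its PtrSND1-B1 libraries of 25 h lay below all those of 7 and 12 h. EdgeR's log2 fold change of 25 h over 7 h was -1.23 (SE 0.343) with an adjusted p of 0.0407, which was 0.00852 in the blocked fit.

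Members stood somewhat higher in PtrSND1-B1 than in sGFP protoplasts at each time. The median of PtrSND1-B1 minus sGFP inside numbers was 0.277 ± 0.0176 at 7 h, 0.2 ± 0.0795 at 12 h and 0.166 ± 0.138 at 25 h on the log2(CPM + 1) scale (SD, n = 3 numbers). For the genes tested it was 0.0152, 0.0312 and 0.0134. The mean difference was above 0 for 93, 82 and 87 of the 112 members at 7, 12 and 25 h, against 11944, 12694 and 11851 of the 22590 genes tested. No test was made, because the sGFP levels of all 3 times entered the choice. That choice favours genes that happened to be low in sGFP at 7 and 25 h and high at 12 h. This would raise the difference of PtrSND1-B1 minus sGFP at 7 and 25 h and lower it at 12 h.

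Features outside the rule were few, since the file gives only identifiers. Of the 112 members, 27 lay in 12 runs of neighbouring rows, the longest of 4, and 37 lay within 5 rows of another member. How often other genes lie so near each other in a list of this size was not counted. Of the 15 neighbouring pairs in these runs, 6 had total reads within 10% of each other, against 5.79% of 13928 neighbouring pairs of genes tested. The member pairs include rows below the count filter and rows with identical counts, so the sets of pairs are unlike. In 3 sets, 7 members held identical counts in all 18 libraries, so that the 112 rows hold 108 distinct sets of counts and reads were counted repeatedly there. More than 1 gene model was given for 2 member loci (1.79%), against 7.53% of all loci.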

How the data were processed

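The deposited file holds raw read counts for each gene model in 18 library columns. The submitters' processing notes name TopHat and edgeR without role or version; the build, annotation, counter, strandedness and handling of multiply mapped reads were not given in the sources used here, so counts of close copies and overlapping or antisense genes are uncertain. Whether a group's libraries are separate plants or isolations is not in the labels; p-values therefore reflect only the spread among these libraries, which may be technical.

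Only the first model of each of the 40668 loci (of 45033 models) was used, and CPM was computed on column sums. The rule was applied to the sGFP libraries. The 9 PtrSND1-B1 libraries were fitted with edgeR 4.0.16 (R 4.3.3; filterByExpr, TMM, quasi-likelihood test, a mean per time), with Benjamini-Hochberg adjustment over 22590 genes and a call under 0.05. The SE is the log2 fold change divided by the square root of F. DESeq2 1.42.0 was an alternative. Among PtrSND1-B1 libraries, the 9 same-number pairs from different times had correlated deviations from group means (log2 CPM, prior count of 2) of 0.102 to 0.653, all over 0.1, so the numbers were taken as pairing them, from the data and not the labels. The same pairs among sGFP libraries ran from 0.0555 to 0.648, 8 of 9 over 0.1, so sGFP missed this criterion. At 12 and 25 h, sGFP number 1 of 12 h correlated at 0.0555 with number 1 of 25 h and at 0.265 with number 3. This bears on the differences inside numbers that chose the members and on the blocked fit of all 18 libraries. In PtrSND1-B1, number 1 of 25 h correlated at 0.102 with number 1 of 7 h and at 0.185 with number 2. That bears on every blocked fit.

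Counts were simulated for PtrSND1-B1 12 h against 7 h (22138 genes, 200 changed), without effects of number and with the spread estimated without a block. Without a block 13% of 2-fold and 84% of 4-fold changes were recovered, with 7 false calls. With the block these were 9% and 79%, with 4 false calls. Because of the spread used, the latter values do not describe the blocked fit of the real counts. Members, lists and rules were chosen with earlier results of these data known. Identifiers shown follow a rule: members in both the 10 largest sGFP differences and the 10 largest edgeR fold changes, by reads, passing over one within 5 rows of a member already shown, and the members called for 25 h against 7 h; exceptions are stated. Keyword lists of gene functions had been prepared, but without gene names could not be applied. Reads carry no molecular identifiers and are not independent molecules.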

Additional observations from a re-analysis of the deposited data

Results flagged for a closer look

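In 5 members the PtrSND1-B1 libraries were lower at 12 h than at 7 h in all 3 replicate numbers, while the sGFP libraries were higher in all 3, as the choice requires. The difference between the constructs was not tested, because the sGFP values chose the genes. The share of all genes lower at 12 h in all 3 numbers of PtrSND1-B1 was not counted. The mean difference of 12 h minus 7 h on the log2(CPM + 1) scale was -1.06 in PtrSND1-B1 and 0.652 in sGFP for POPTR_0009s01740.1, which had 191 reads in all. For a second gene with 129 reads it was -0.329 in PtrSND1-B1 and 1.05 in sGFP. For the other 3, which neighbour that gene and hold identical counts of 127 reads in all, it was -0.289 in PtrSND1-B1 and 1.05 in sGFP. In number 1 of PtrSND1-B1 these 3 had 9 reads at 12 h and 7 at 7 h. The difference of -0.0161 there thus turned below 0 only through scaling to library size. These 4 neighbours make up the longest run of neighbouring rows among the members.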

How the results depend on the processing

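The count of members higher at 12 h than at 7 h in PtrSND1-B1, 0 without a block, was 34 with the replicate block, 12 with DESeq2 (237 of all genes), and 51 with the block and all 18 libraries in the fit (705 of 23777 genes). For 12 h over 25 h the 0 became 37, 9 (157 of all genes) and 50 (1113) under the same settings. Without single libraries or numbers these counts were 0 to 44 and 0 to 42; the values above 0 came from blocked fits without number 1 (10 and 19) or number 3 (44 and 42). For 25 h over 7 h the 3 members higher became 6 with the block, 8 with the block and all 18 libraries (3412 of all genes), and 1 with library size alone (0 to 8 without single libraries or numbers). The 1 lower became 4 with the block, 12 with the block and all libraries (3919 of all genes), 5 with all libraries or with no filter on counts, and 3 with DESeq2 or library size alone (0 to 9 without single libraries or numbers). With the block, all genes called numbered 923, 1051 and 5956 for the 3 comparisons, against 0, 23 and 3026 without it. The rule gave 188 genes in sGFP with a pseudocount of 0.5, 62 with 2, and 120 to 334 without single numbers. With TMM library sizes it gave 109, of which 95 were members. The members that met it in PtrSND1-B1 numbered 49 to 61 with other pseudocounts and 55 with TMM library sizes, a scaling that shifted the all-gene median in PtrSND1-B1 by 0.152 for 25 h minus 7 h and by -0.102 for 12 h minus 25 h. They numbered 55 to 66 without single numbers. The median of 12 h over 7 h was 0.957 with a pseudocount of 0.5 and 0.697 with 2. Fits with all libraries and the block, or without a number, were added after seeing the data. Every fit with all 18 libraries includes the sGFP libraries that chose the members, so its member counts are not separate from the choice. The causes of these shifts were not tested.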

Other observations

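With TMM library sizes the rule that chose the members gave 157 genes in PtrSND1-B1 and 109 in sGFP, and the reversed rule, lowest at 12 h, gave 15 and 20.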
